A study of Mus musculus with 2 samples.

Results

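The isolated peaks of low pileup were 236 of the 947 regions at which RNA recovered with Flag-tagged Zc3h10 from mouse myoblasts exceeded RNA from GFP-expressing myoblasts (24.9%, exact 95% interval 22.2% to 27.8%). They were chosen from the authors' peak list by position and by height. Peaks on chromosomes 1 to 19 and X (938 in all) were joined into a locus wherever one started at most 10000 bases after the end of the one before. A member was a peak alone in its locus whose pileup, the number of Flag-Zc3h10 fragments stacked over its summit, was under 100. Of the 938 peaks, 541 were alone in their locus. The members were 43.6% of these (interval 39.4% to 47.9%) and 57.7% (interval 52.8% to 62.5%) of the 409 peaks of pileup under 100. The other parts of the list were 305 isolated peaks of pileup 100 or more and 397 clustered peaks, 173 of them with a pileup under 100.

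Both libraries came from C2C12, an established mouse myoblast line that can be grown as dividing precursors or fused into myotubes. Both cultures were infected with adenovirus type 5 lacking E1 and E3 at a multiplicity of infection of 5 for 48 h. One vector carried mouse Zc3h10 with a Flag tag at its N terminus and the other GFP, each driven by the CMV promoter, so the tagged protein was overexpressed. RNA of the Flag-Zc3h10 cells was recovered on anti-Flag beads. The GFP cells have the antibody label none, while the protocol describes beads for every sample, so it is not settled whether the GFP library is a mock precipitation. There was 1 library per group. Every value below therefore belongs to a peak in this pair of libraries and has no replicate error. A peak does not separate recovery with Zc3h10 from more RNA per cell or more cells with that RNA. After duplicates were limited, 10439835 tags of the Flag-Zc3h10 library and 10849213 of the GFP library were used. These were 32.6% of 32072310 tags and 30.3% of 35838104 tags, so most tags of both libraries were not used.

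Zc3h10 belongs to the CCCH zinc finger proteins, a family in which a short zinc-binding fold often contacts RNA directly. In RNA immunoprecipitation sequencing, transcripts held by a tagged protein are pulled down with it and sequenced, and a transcript held by the protein should be richer in the precipitate than in the comparison RNA. The libraries here were primed on poly(A) tails and copied to full-length cDNA before fragmentation, so a spliced transcript covers the genome as separate exonic blocks. A long exon gives a wide block of signal and a scarce RNA gives a low one. A solitary low peak is thus the kind of call in which few fragments decide the result.

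No gene, exon or repeat is named for any member. The list names no genes, its coordinates are those of mm9, and no genome or annotation of that build was used here. For the same reason no sequence is shown and the muscle identity of the cells was not checked against marker genes. Positions below are on mm9, with the first and last base of each peak.

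The members were low by their definition, and their heights were spread over the whole allowed range. Pileups ran from 16 to 97 fragments with a median of 45 and quartiles of 28 and 66. Between 20 and 29 fragments lay 58 members, more than in any other step of 10, while 12 lay under 20 and 10 lay from 90 to 97. Together the members held 24.9% of the listed peaks, 15.3% of the bases covered and 5.87% of the summed pileup. Just inside the threshold were chr17:34782753-34783298 with 97 fragments, chr8:11454333-11454879 with 96 and chr12:110781848-110784761 with 96. Just outside it were isolated peaks at chr5:104521795-104522429 and chr18:73749975-73750645 with 100 fragments each, and at chr17:56036838-56037419 with 101. The first of those inside and the first of those outside were enriched 1.85-fold and 1.73-fold, so ratios just inside and just outside the threshold can be similar.

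Low pileup went with a weak signal in the GFP library. The control level, which is what the GFP library leads one to expect at a summit, was taken as pileup divided by the deposited fold enrichment. It had a median of 10.6 fragments among the members, with quartiles of 3.85 and 22.1 and a highest value of 52.4. In the isolated peaks of higher pileup the median was 131.7, and in the clustered peaks of pileup under 100 it was 12.5. The control level was under 10 at 115 members (48.7%, interval 42.2% to 55.3%) and 30 or more at 30 members (12.7%, interval 8.74% to 17.6%). Over all 938 peaks these shares were 19.8% and 61.2%. Among the clustered peaks of pileup under 100 they were 39.9% (interval 32.5% to 47.6%) and 16.8% (interval 11.5% to 23.2%). Across the 236 members the control level rose with the pileup (Spearman's rho 0.88). That figure is a description, because the points come from the same 2 libraries and a peak is listed only where its pileup clears the control.

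**Figure D1:**
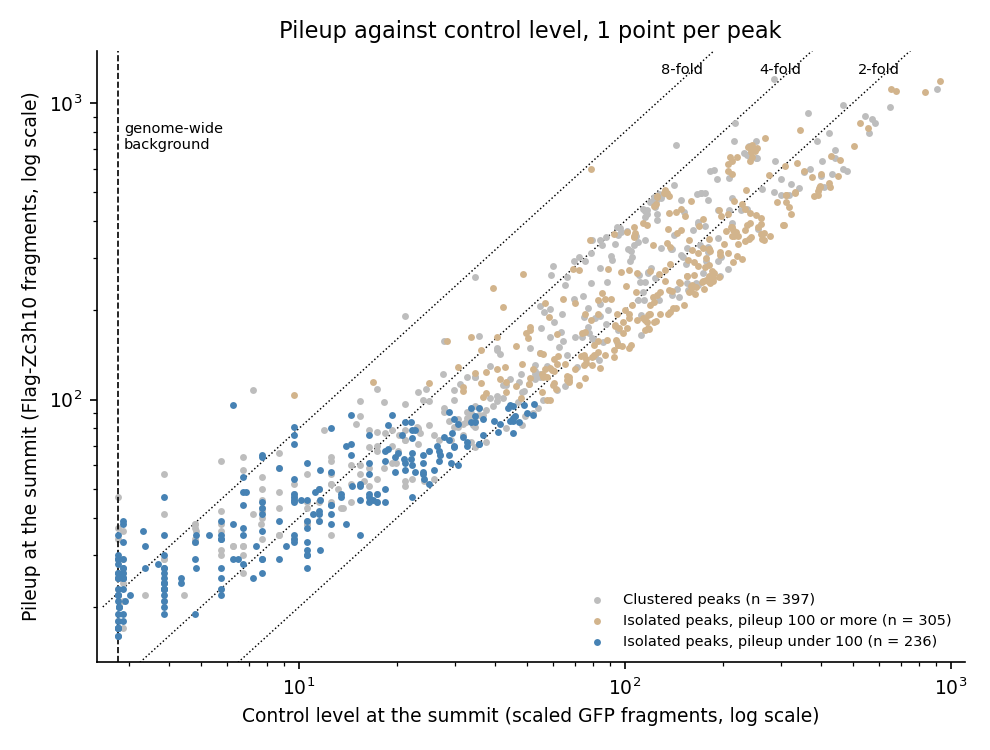
Pileup in the Flag-Zc3h10 library (vertical axis, fragments, log scale) against the control level from the GFP library (horizontal axis, scaled fragments, log scale), with 1 point per peak on chromosomes 1 to 19 and X. Dotted lines mark 2-fold, 4-fold and 8-fold enrichment and the dashed line the genome-wide background of 2.79. The 236 members form the lower left of the cloud, and the points stand in vertical columns at low control levels.

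Enrichment varied widely among the members. Fold enrichment, the ratio of pileup to control level, ran from 1.70 to 15.35 among the members, and its median was 4.07 (quartiles 2.74 and 6.41). At least 4-fold enrichment was listed for 118 members (50.0%, interval 43.4% to 56.6%), where 26.0% of all listed peaks reached it. At least 8-fold enrichment was listed for 30 members (12.7%), against 6.12% of all peaks, and at least 10-fold for 12 (5.08%), against 2.85%. Under 2-fold were 14 members (5.93%), against 27.1% of all peaks. Pileup chose the members and enters the ratio, so these shares describe the selection and nothing is read from them. Among the clustered peaks of pileup under 100 the share with at least 4-fold enrichment was 51.4% (89 of 173, interval 43.7% to 59.1%), with a median of 4.04.

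From 20 fragments upward, the median ratio was lower where the pileup was higher. The 12 members under 20 fragments had a median of 6.09 (3.95 to 6.81), and the 58 members of 20 to 29 fragments one of 6.88. At 50 to 59 fragments the median was 3.31, and at 90 fragments or more it was 2.16. The lowest listed ratio also fell, from 3.95 under 20 fragments to 2.27 at 30 to 39 and 1.70 at 70 to 89. At 90 fragments or more it was 1.80. A lower ratio can pass the caller's q-value cutoff where more fragments stand behind it. Whether this accounts for the fall was not tested. Split at 50 fragments, the 139 lower members had a median of 5.77 and the 75 lower clustered peaks one of 5.59. The 97 higher members had a median of 2.70 and the 98 higher clustered peaks one of 3.28. These differences were not tested.

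The highest ratio among the members was at chr12:110781848-110784761, where 96 fragments (exact Poisson interval 77.8 to 117.0) stood over a control level of 6.25, a 15.35-fold enrichment. This peak was also the widest member at 2914 bases and had the highest −log10 q, 73.03, so it led the members on 3 measures at once. Its nearest listed peak was another member, 24558 bases further along, at chr12:110809319-110810217. There 35 fragments (24.4 to 48.7) stood over the genome-wide background, an enrichment of at least 12.54-fold.

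The other leading ratios stood over low control levels, several of them equal to 3 or 4 GFP fragments. The same level can also come from tags spread over a wider local window, so the counting intervals here and below hold only if the control is that number of fragments over the summit. At chr11:49640213-49640848, 39 Flag-Zc3h10 fragments stood over a control level of 3 GFP fragments. The listed ratio was 13.51, and the counting interval of that ratio ran from 4.29 to 68.3. At chr1:122084199-122085152 the counts were 38 over 3, with a ratio of 13.16 and an interval of 4.18 to 66.7. On that reading these intervals overlap, and the order of the ratios is not resolved. The peak chr11:100109363-100110180 had 47 fragments over 4 GFP fragments, 12.21-fold with an interval of 4.46 to 46.7. The solitary peak chr3:51111568-51112178, 14916596 bases from the nearest listed peak, had 33 over 3 and a ratio of 11.43 (3.59 to 58.3). At chr19:56871116-56871839 the ratio was 10.84 at a pileup of 36, and at chr2:102482226-102483035 it was at least 10.75 at a pileup of 30. These intervals cover counting error only, and the summit was itself picked as the highest point.

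Ranked by −log10 q, members with more fragments came forward. After the chromosome 12 peak came chr1:166726469-166727609, with 81 fragments over 10 GFP fragments, 8.42-fold (interval 4.35 to 18.2) and a −log10 q of 42.12. At chr5:135178428-135179937 the counts were 76 over 10 and the ratio 7.90 (4.07 to 17.1). The peak chr18:32116951-32118271 had 89 over 15 and a ratio of 6.17 (3.54 to 11.5). For chr3:144485939-144486605 the counts were 65 over 8, with a ratio of 8.44 (4.04 to 20.4), and for chr5:104034849-104036175 they were 80 over 13, with a ratio of 6.40 (3.54 to 12.5). The lower ends of these 5 intervals all exceeded 3.5-fold, and they were narrower than those at 3 or 4 GFP fragments. Over all members −log10 q ran from 2.05 to 73.03 with a median of 8.72. It was 10 or more at 100 members (42.4%) and at 114 of the 173 low clustered peaks (65.9%), while the isolated peaks of higher pileup had a median of 13.6.

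At the other end stood members whose GFP signal came closest to their own. The lowest ratios were 1.70 at chr8:23180916-23181620 (89 fragments over a control level of 52.4), 1.70 at chr19:8926203-8927609 (77 over 45.3) and 1.78 at chr1:174307745-174308623 (84 over 47.2). The highest control level, 52.4, was at chr17:34782753-34783298, where the ratio was 1.85. Controls of 50.0 and 48.98 were found at chr7:108494154-108494656 and chr19:30033941-30034480, enriched 1.80-fold and 1.96-fold. The lowest −log10 q, 2.05, belonged to chr4:129844202-129844811, with 27 fragments over 11 GFP fragments, a ratio of 2.55 and a counting interval of 1.22 to 5.70. Next came chr19:8926203-8927609 at 2.06 and chr16:3861663-3862162 at 2.13, the last with 35 fragments and a ratio of 2.27.

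Control levels took few values. The larger GFP library was scaled to the smaller, so 1 GFP fragment counts as 0.962. A tag counts as 0.481 in the local window of 1000 bases and as 0.048 in that of 10000 bases. The deposited ratio has 2 decimals, which at 154 members fixes the control level to within 0.048, closely enough to tell whole fragments from steps of the 1000-base window. Steps of the 10000-base window are no larger than that limit and cannot be told apart in the same way. At 106 of the 154 (68.8%) the control level was a whole number of GFP fragments. At 14 it was a step of the 1000-base window only and at 9 it was neither of these, and at 25 it was the genome-wide background. A whole number of fragments is also a step of both windows, so the 106 is an upper limit for controls set by fragments over the summit itself.

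**Figure D2:**
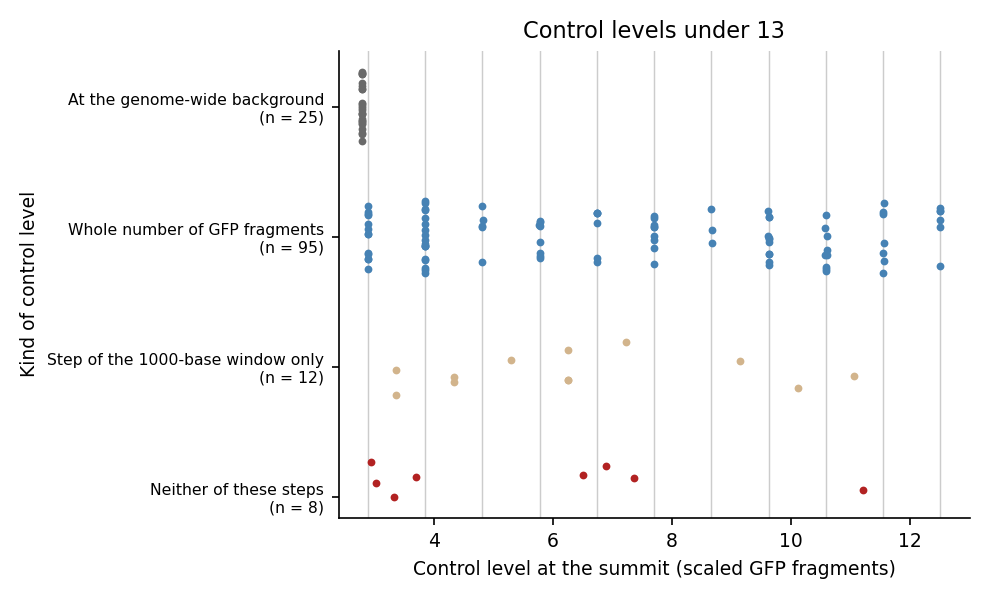
Control levels under 13 (horizontal axis, scaled GFP fragments) in the 140 isolated peaks of low pileup that have one, by the kind of step (vertical axis, points spread for display, with the lowest row for levels that are neither whole fragments nor steps of the 1000-base window). Grey lines mark whole numbers of GFP fragments, 0.962 apart, and 95 of the points stand on them.

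The most frequent resolved levels were the lowest. Rounding of the ratio leaves a wider span at higher control levels and lower ratios, so the resolved set itself favours low levels. The controls of 82 members were not resolved. A control of 4 GFP fragments was found at 18 members, with pileups of 19 to 47 and ratios of 4.94 to 12.21. A control of 3 was found at 13 members, with pileups of 18 to 39 and ratios of 6.24 to 13.51. Levels of 10, 8 and 11 fragments followed with 11, 9 and 9 members. The 31 members at 3 or 4 fragments lay on 15 chromosomes and had a median ratio of 7.01. A single GFP fragment is 0.962 of a control level of 2.89 to 3.85 there.

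At 25 members (10.6%, interval 6.97% to 15.2%) the control was at the genome-wide background of 2.79, where 4.33% of all listed peaks were. That level equals 2.90 GFP fragments, and the caller lets no control fall below it, so the ratio there is a lower bound. Pileups of these 25 members ran from 16 to 35 with a median of 22, and their bounds from 5.73-fold to 12.54-fold with a median of 7.88. All 25 had a pileup under 50, a range that holds 139 members. The 2 lowest, chr8:71998477-71998981 and chr7:13568985-13569516, had 16 fragments each. Others were chr9:105343693-105344366 and chr6:147200693-147201309, with 29 fragments and at least 10.39-fold enrichment each, and chr17:13745053-13746104, at 1052 bases the widest of the 25. They lay on 14 chromosomes and so did not come from 1 region. Among the clustered peaks of pileup under 100, 13 of 173 had a control at background (7.51%, interval 4.06% to 12.5%). All 13 were among the 75 of these under 50 fragments. No isolated peak of higher pileup had a control at background, which for 0 of 305 allows a share of up to 0.984%. A high pileup over so low a level would be a very high ratio, so that 0 depends on the pileup limit.

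The members were narrow. Their widths ran from 500 to 2914 bases with a median of 653.5 and quartiles of 542 and 899.5. The smallest width equals the 500 bases to which tags were extended. Exactly 500 bases wide were 23 members (9.75%, interval 6.28% to 14.3%), 2 of the 305 isolated peaks of higher pileup (0.656%) and 5 of the 173 low clustered peaks (2.89%). Up to 600 bases wide were 96 members (40.7%), and over 1000 bases were 36 (15.3%). Over all 938 peaks these shares were 28.4% and 40.9%, and among the low clustered peaks 38.7% and 24.3%. The isolated peaks of higher pileup had a median of 1017 bases, and the low clustered peaks one of 693 bases. Width and fold enrichment were only weakly related across the members (rho 0.21), and so were width and pileup (rho 0.25).

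Width did not fall off evenly. The bin of 500 to 549 bases held 67 members and the bins from 750 to 899 bases held 8, 9 and 5. Then 11 members were 900 to 949 bases wide and 12 were 950 to 999, after which 3 were 1000 to 1049. The excess over the neighbouring bins is thus at widths just under 1000 bases. Under the caller's settings, 2 tags of opposite strand that cover the same 51 bases and are each extended to 500 bases span 949 bases together. Between 940 and 960 bases lay 13 members (5.51%, interval 2.97% to 9.24%), on 8 chromosomes, a range chosen after the widths had been seen. So did 25 of all 938 peaks (2.67%), which include these 13 members, and 2.89% of the low clustered peaks (interval 0.945% to 6.62%). Of the isolated peaks of higher pileup 1.31% did (4 of 305, interval 0.358% to 3.32%). Both intervals overlap that of the members, and the differences were not tested. In 10 of the 13 the summit lay between 40% and 60% of the width. At most 2 tags were kept per position, while these 13 peaks had pileups of 29 to 91. The list gives no strands, so whether opposite-strand stacks account for this width was not tested.

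**Figure D3:**
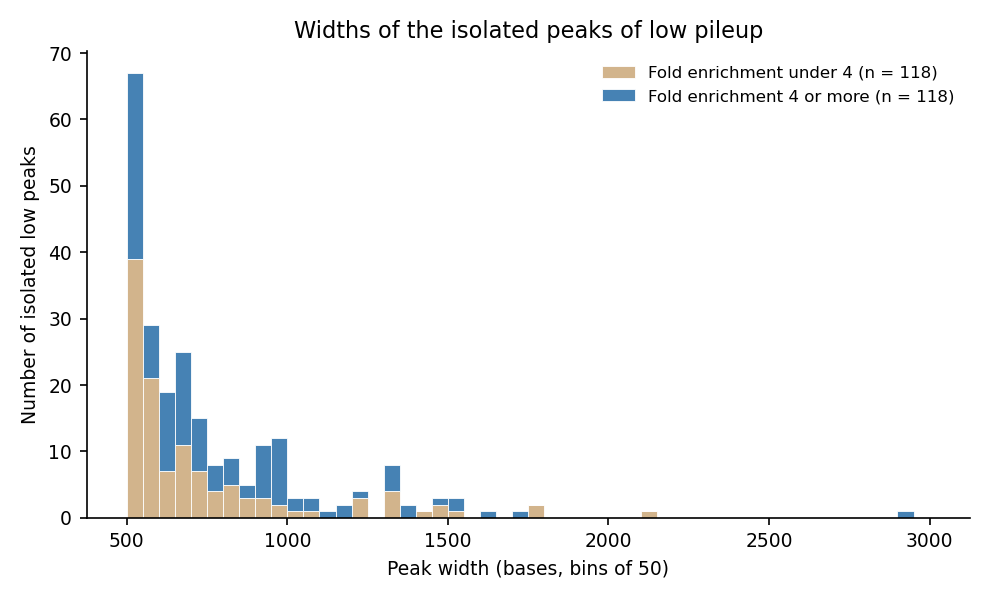
Number of isolated peaks of low pileup (vertical axis) by width (horizontal axis, bins of 50 bases), divided into 118 with fold enrichment under 4 and 118 with 4 or more. Most lie between 500 and 700 bases, and a second group of 23 lies between 900 and 999 bases.

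The peaks of 940 to 960 bases had pileups of 29 to 91 and ratios of 2.36 to 13.16 with a median of 6.03. Of these 13, 3 stood in a row on chromosome 1. The first, chr1:122046834-122047793, was 960 bases wide with 71 fragments over 15 GFP fragments and a ratio of 4.92 (counting interval 2.79 to 9.25). After a gap of 19769 bases came chr1:122067562-122068516, 955 bases wide, with 35 over 5 and a ratio of 7.27 (2.84 to 23.8). After a further 15683 bases came chr1:122084199-122085152, 954 bases wide, with 38 over 3 and the ratio of 13.16 given above. Their summits lay 11.5, 2.0 and 8.5 bases from the peak centres. All 3 were taken from the range of 940 to 960 bases, so their near-equal widths follow from that choice. A summit between 40% and 60% of the width was found in 10 of the 13. The counting intervals of the 3 neighbours overlapped. Elsewhere the peak chrX:139917128-139918082 was 955 bases wide with its summit 4.0 bases from the centre, 64 fragments over 8 GFP fragments and a ratio of 8.31 (3.98 to 20.1). By contrast chr7:135115654-135116597, 944 bases wide, had its summit 128 bases from one end.

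The widest members after the chromosome 12 peak differed in where their summits lay. The peak chr7:48903750-48905864 was 2115 bases wide with 33 fragments and a ratio of 3.12, and its summit lay 121 bases from one end. The peak chr10:126491976-126493746 was 1771 bases wide with 79 fragments and a ratio of 3.57. At chr7:69493310-69495067 the width was 1758 bases and the ratio 3.67, and at chr13:3900359-3902107 the width was 1749 bases and the ratio 5.85. In the last of these the summit lay at 40.6% of the width from the nearer end.

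Summits lay mostly inside the peaks. The median distance to the nearer end was 214.5 bases, with quartiles of 117 and 347.75. As a share of width the median was 33.5%, where 50% is the centre and 25% would be the middle of an even spread. The summit lay between 40% and 60% of the width in 86 members (36.4%, interval 30.3% to 42.9%) and within 10% of an end in 24 (10.2%, interval 6.63% to 14.8%). Among the isolated peaks of higher pileup 28.9% and 23.0% were so placed, and among the low clustered peaks 34.1% and 9.25%. The summit was nearer the start in 127 members (53.8%, interval 47.2% to 60.3%), so neither end was clearly preferred. Positions carry no strand, and the start is the end of lower coordinate.

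Summits lay nearer an end in members of lower ratio. Under 2-fold, the median distance to the nearer end was 9.01% of the width over 14 members, with a highest value of 23.05%. In 8 of these 14 the summit was within 10% of an end and in none between 40% and 60%. From 2-fold to under 4-fold the median was 27.4% over 104 members, with 32 so centred and 15 within 10% of an end. At 4-fold or more it was 38.6% over 118 members, with 54 centred and 1 within 10% of an end. Across members the rho between fold enrichment and this relative distance was 0.46. It is a description, since summit, pileup and ratio are read from 1 profile of the same libraries. The summit was the last base of the peak at chr19:8926203-8927609 and chr4:129844202-129844811, 2 members already named for a low ratio or a low −log10 q. The 1 member of at least 4-fold enrichment with an edge summit was chr13:12432829-12433340, 512 bases wide, at least 10.03-fold enriched with 28 fragments over background.

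**Figure D4:**
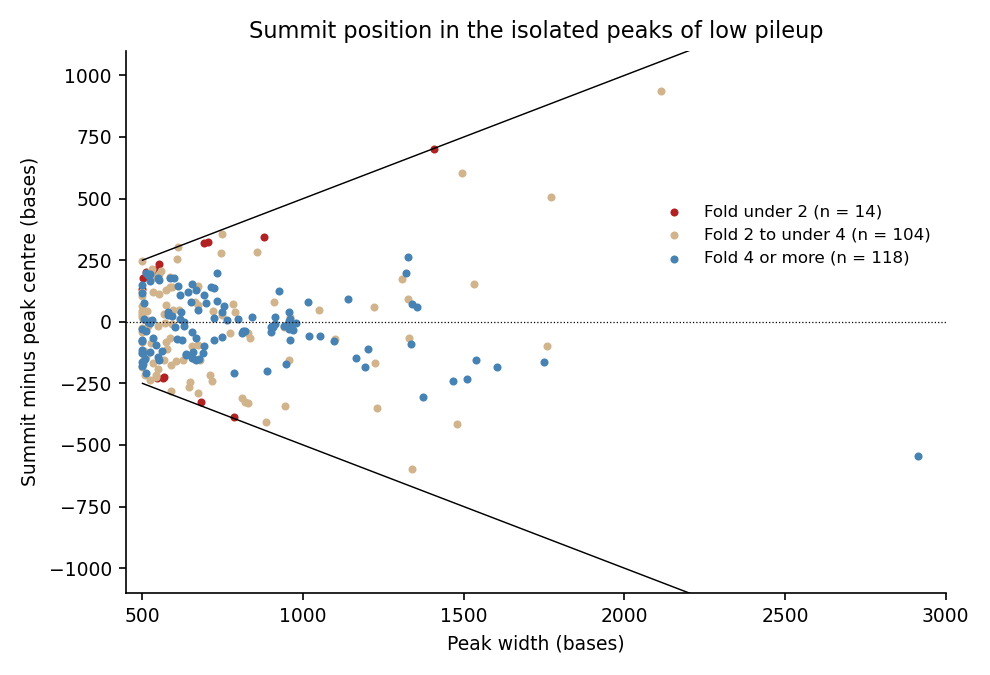
Distance of the summit from the peak centre (vertical axis, bases, positive toward higher coordinates) against width (horizontal axis, bases) in the 236 isolated peaks of low pileup, coloured by fold enrichment. Solid lines mark the peak ends. The 14 members under 2-fold lie toward the lines and the 118 of 4-fold or more mostly around 0.

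Distances between members and the rest of the list varied widely. The gap to the nearest listed peak had a median of 467190 bases and ran from 10072 to 26688706. Over 1000000 bases from any other peak were 81 members, and 43 had one within 50000 bases. The nearest peak was another member for 87, an isolated peak of higher pileup for 94 and a clustered peak for 55. The closest members, chr2:10162050-10162717 and chr2:10172789-10173602, lay 10072 bases apart, just past the joining distance, and were enriched 8.66-fold (25 fragments over 3, interval 2.64 to 44.8) and 6.86-fold (33 over 5, interval 2.66 to 22.5). The farthest, chr3:9282346-9282951, had 57 fragments, a ratio of 2.37 and its summit 48 bases from one end. Isolation is thus a matter of degree, and 21 members had a neighbour within 20000 bases.

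Among the 43 members with a peak within 50000 bases, the nearest was another member for 26. Neighbouring members this close formed 14 pairs on 11 chromosomes. In the pair at chr7:53995478-53996576 and chr7:54008909-54010005, 12333 bases apart, widths were 1099 and 1097 bases and ratios 3.80 and 5.02. The pair at chr1:166726469-166727609 and chr1:166738672-166739575 had ratios of 8.42 and 6.50 at unlike pileups of 81 and 25. At chr10:59820701-59821212 and chr10:59831693-59832225 both ratios were low, 2.83 and 2.10. Pairs of near members thus ranged from low to high enrichment. The median ratio was 5.02 for the 43, 4.07 for the 112 with the nearest peak at 50000 to 1000000 bases and 3.52 for the 81 beyond that. Their median control levels were 8.66, 9.63 and 12.5, so the control was higher where the ratio was lower, and the difference was not tested.

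All 20 chromosomes considered held members. The most were on chromosome 11 (24), followed by chromosomes 1 (23), 7 (21), 2 (20) and 8 (18), and these 5 held 44.9% of the members. The fewest were on X (3), 14 (4), 3 (5) and 15 (5). Set against the share of annotated genes on each chromosome, the ratio of found to proportional number was 1.68 on chromosome 19, 1.63 on 11, 1.62 on 1 and 1.59 on 8. Over all peaks of these chromosomes it was 1.5, 1.25, 1.14 and 1.44. The members' ratio was 0.25 on X, 0.36 on 14 and 0.43 on 3, where that of all peaks was 0.36, 0.50 and 0.69. On each of these 7 chromosomes, named for the members' extremes, the ratio of all peaks lay on the same side of 1 as the members' ratio. All peaks include the members, so this agreement is partly built in and nothing is read from it. On chromosomes 4, 5, 6, 12, 17 and 18 the 2 ratios lay on opposite sides of 1. On chromosome 5 the members' ratio was 0.69 and that of all peaks 1.25, and on chromosome 18 they were 1.27 and 0.88. On chromosomes 6, 7 and 16 the members' ratio was within 0.10 of 1. Chromosome 6 had 14 of its 30 peaks among the members (46.7%), chromosome 18 had 8 of 22 (36.4%) and chromosome 1 had 23 of 64 (35.9%). Chromosome 5 had 9 of 65 (13.8%). Peaks of a chromosome with close neighbours cannot be members, so this spread depends on the joining rule and was not tested.

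**Figure D5:**
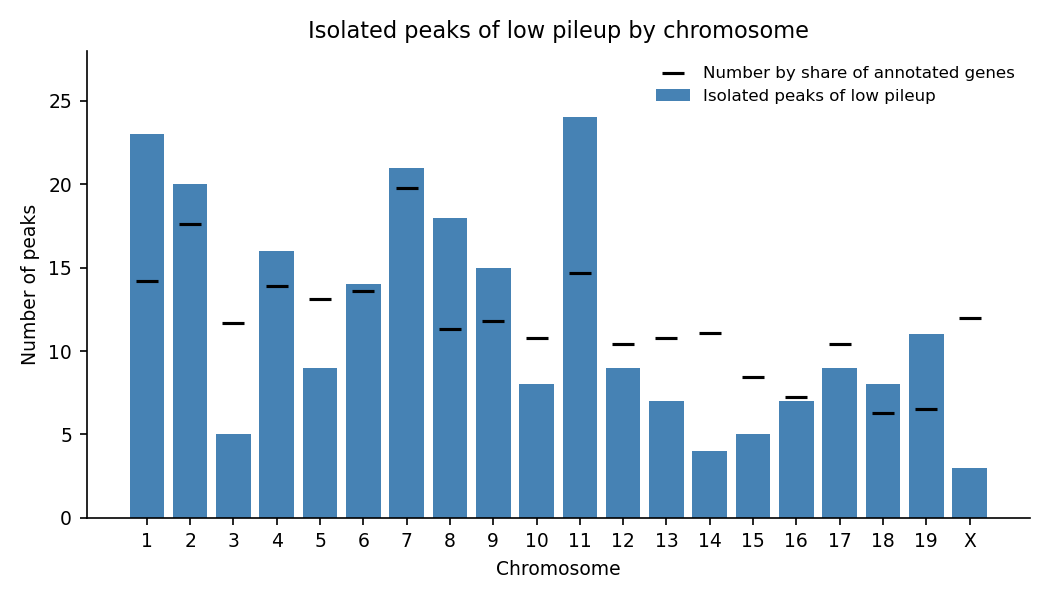
Number of isolated peaks of low pileup (vertical axis, bars) on each of the 20 chromosomes (horizontal axis), with a dash at the number proportional to the share of annotated genes. Chromosomes 11 and 1 hold 24 and 23 members, and X holds 3 where 12.0 would be proportional. X is also low over all listed peaks, at 0.36 of its proportional number.

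The chromosomes with few members were not alike in their values. The 4 members on chromosome 14 were all enriched at least 5.72-fold, at pileups of 22 to 39. On X the 3 members were chrX:139917128-139918082 with the ratio of 8.31, chrX:8471310-8472221 with 27 fragments over 6 GFP fragments (4.68-fold, interval 1.89 to 13.9) and chrX:102234554-102235086 with 83 fragments and a ratio of 2.01. Chromosome 17, with 9 members, had a median ratio of 2.88 and a median control level of 19.8. Chromosome 13, with 7, had a median ratio of 6.81 and a median control level of 3.03. Median ratios by chromosome thus ranged from 2.88 to 6.88, and the high ones went with low control levels, as they did across single members (rho -0.90, where the control level is the divisor of the ratio).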

How the data were processed

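Per the submitters' processing notes, the authors used TopHat2 2.0.6 and the genome build mm9 for alignment. Their peak caller was MACS2 2.0.9. The caller compared 1 Flag-Zc3h10 with 1 GFP alignment at a q-value cutoff of 0.01, kept at most 2 tags per position and extended tags of 51 bases to 500, per the file headers. The deposited pileup is a signal in fragments at the summit, the deposited fold enrichment its ratio to the local GFP level, and the −log10 p and −log10 q are the authors' caller's own. The treatment of reads with several alignments is not given in the sources. All values per peak are the authors', and those computed here are control levels, distances, counts and intervals. The background was tags times 500 over the genome size, with a tolerance of 0.02. Share intervals are exact (Clopper-Pearson), those of ratios come from the exact binomial interval of both counts, and all cover counting error only. A limit for a share of 0 uses 3 counts. No test was run, since the members were chosen by pileup from 1 library per group. Members and lists were chosen with earlier results of these data known. Named peaks are the extremes of ratio, −log10 q, width, control level, pileup and gap, and other peaks were named after their values were seen. Chromosome gene shares use 49554 genes of a RefSeq table of GRCm38.p6. The joining and control steps were tested on simulated data. Python 3.11.15 was used, with scipy 1.17.1, matplotlib 3.10.9, pandas 2.3.3 and numpy 2.4.6.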

Additional observations from a re-analysis of the deposited data

Results flagged for a closer look

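The list also holds peaks on sequences without a fixed place, which were not counted as members. Of these 9 peaks, 6 were alone in their locus with a pileup under 100, and 5 of the 6 were enriched at least 4-fold. A control at the genome-wide background was found at 3 of them. All 6 exceeded the GFP library and lie outside the comparisons above, which is why they are given here. The highest ratio, a lower bound of 12.54, was on chr8_random from 679704 to 683677, with 35 fragments and a width of 3974 bases, wider than any member. On chrUn_random, the peaks from 5473979 to 5474921 and from 5889879 to 5890827 had 34 and 33 fragments over widths of 943 and 949 bases. Their ratios were 12.18, a lower bound, and 11.43.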

How the results depend on the processing

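With peaks of pileup under 50 only, the 236 members became 139, with a median fold enrichment of 5.77 and a median control level of 5.30. With pileups under 200 the medians were 3.24 and 20.85, over 348 peaks. A tolerance of 0.2 around the background took the members with a control at background from 25 to 39. In all, 43 of 49 recomputed values stayed within 1.5 times the count or within the exact interval of the median. Some of these could not move. The count at background was 25 under both other pileup limits, since all 25 members had a pileup under 50 and no isolated peak of higher pileup was at background. The counts of 353 and 348 peaks lay just inside the limit of 1.5 times, so the tally is no measure of stability. The joining distance bears on the number, which was 353 at 1000 bases and 193 at 50000 bases, and 91 of those 193 were enriched at least 4-fold. With the list first limited to a −log10 q of at least 5, 202 peaks met the rule, some of them isolated only after that limit, while 39 of the 236 members lay under it. No paired analysis was possible because there was a single library in each group. Where the control level is read as 3 or 4 GFP fragments, the higher end of a ratio's counting interval was at least 10.5 times the lower.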
